A study of Sus scrofa with 9 samples.

Results

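ABRACL, EMP3 and CAPG are 3 liver genes of low to moderate abundance, taken from a table of 25918 genes. They were chosen by their higher values in high-iron libraries than in the other libraries of the same table. The high-iron values therefore define the genes, and the contrasts of high-iron with control and with low-iron are given as a description without a test. RNA came from the liver of 9 Wujin pigs, a Chinese pig breed, with 1 library per pig, and 3 pigs were fed each of the diets called low-iron, control and high-iron. The piglets were 35 days old at the start, were prefed for 5 days and then ate the formal diet for 30 days. Iron glycinate added 0, 100 and 200 mg of iron per kg to the low-iron, control and high-iron diets, so that pigs without added iron still ate the iron of the basal feed. The study used males and females, and the labels give no sex for a library. Libraries are named by their group and the animal number in the label. Values are FPKM, the fragments per kilobase of transcript, scaled to the mapped fragments of the library. Each p-value of the group fit reflects the spread between pigs fed alike, pooled over the 3 groups and moderated across genes. The Y-linked gene EIF1AY was at 0 FPKM in low-iron 3, control 5, high-iron 2 and high-iron 8, and at 15.0 to 26.5 in every other library. The groups were thus not balanced in this Y-linked marker. Beyond a fit with EIF1AY as a covariate, the part of sex in the 3 genes was not tested.

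Actin is the protein of the fine filaments that give cells their shape and let them crawl and engulf particles, and cells control it by capping, cutting and rebuilding the filament ends. CAPG belongs to the gelsolin family and blocks the fast growing end of the filament when calcium is high, and it is best known from macrophages. ABRACL is a small protein of the costars family, named for its likeness to the end of ABRA, an actin-binding protein of striated muscle. EMP3 is a membrane protein that spans the membrane several times and belongs to the PMP22/EMP family together with EMP1, EMP2 and PMP22. In liver tissue the resident macrophages, or Kupffer cells, recycle the iron of old red cells, and hepatocytes store iron.

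The promoters are shown because the 3 genes share their higher values in high-iron libraries and the table gives nothing else about their control. They are RefSeq sequences of the Sscrofa11.1 build, from 250 bases before to 50 bases after an annotated transcript start, on the strand of the gene. Capitals mark every match on either strand to the motifs searched. These were GGGCGG for the GC box, TATAAA for the motif of that name, CCAAT for the box of that name and TGANTCA for the AP-1 site. Further motifs were ACGTG for the core of the hypoxia response element, GAGGAA for the purine box bound by PU.1, and the CArG box bound by SRF. ABRACL (gene ID 100525723) lies on the minus strand of chromosome 1 from 25432314 to 25447016, and its window is chr1:25446967-25447266. EMP3 (gene ID 100625126) lies on the plus strand of chromosome 6 from 53757513 to 53761833, and its window is chr6:53757263-53757562. EMP3 has 3 annotated transcripts with 3 distinct starts, and this window belongs to the first base of the gene. CAPG (gene ID 100519653) lies on the plus strand of chromosome 3 from 59335483 to 59366855. CAPG has 7 annotated transcripts with 6 distinct starts, and the window shown, chr3:59349529-59349828, belongs to the start that 2 of them share.
ABRACL: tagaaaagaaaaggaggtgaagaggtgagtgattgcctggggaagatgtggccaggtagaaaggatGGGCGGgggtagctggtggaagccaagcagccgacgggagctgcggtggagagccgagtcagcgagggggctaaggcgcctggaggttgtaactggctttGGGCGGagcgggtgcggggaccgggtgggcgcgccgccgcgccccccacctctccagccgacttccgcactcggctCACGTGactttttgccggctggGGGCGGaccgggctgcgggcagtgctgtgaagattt
EMP3: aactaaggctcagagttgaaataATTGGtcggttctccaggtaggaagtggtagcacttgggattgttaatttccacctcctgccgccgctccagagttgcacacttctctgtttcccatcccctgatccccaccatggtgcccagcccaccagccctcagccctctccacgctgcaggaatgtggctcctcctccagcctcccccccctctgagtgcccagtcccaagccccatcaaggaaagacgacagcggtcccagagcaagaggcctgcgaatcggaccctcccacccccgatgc
CAPG: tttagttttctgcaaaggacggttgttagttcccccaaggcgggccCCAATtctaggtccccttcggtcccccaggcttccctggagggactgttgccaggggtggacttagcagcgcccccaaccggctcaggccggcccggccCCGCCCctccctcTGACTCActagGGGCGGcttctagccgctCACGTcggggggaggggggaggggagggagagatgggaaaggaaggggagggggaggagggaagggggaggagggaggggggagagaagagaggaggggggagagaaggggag

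The 3 windows did not share a motif set. The ABRACL window held 3 GC boxes and 1 run CACGTG, where ACGTG stands on both strands and the matches overlap. The EMP3 window held 1 CCAAT box on the opposite strand and nothing else of the search. The CAPG window held 2 GC boxes, 1 CCAAT box, 1 AP-1 site and 1 ACGTG, none of which overlap. The window at the first base of the CAPG gene, chr3:59335233-59335532, held 1 ACGTG alone. No TATA box, GAGGAA or CArG box was matched in any of these 4 windows. Over 20664 windows of the same length at the gene starts of the annotation, 48.9% held a GC box, 35.7% a CCAAT box, 21.7% an ACGTG, 6.35% an AP-1 site, 26.1% a GAGGAA, 11.6% a TATA box and 1.48% a CArG box. GC content was 65.7% for ABRACL, 59.7% for EMP3 and 67.0% for the CAPG window shown, against a median of 58.0% over all windows. The window at the first base of the CAPG gene, placed as those of the annotation were, had 58.0%. A match describes these letters and is not a binding site.

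Averaged over the 9 libraries, the genes were of low abundance. On the FPKM scale, which is per length, the mean level was 1.73 for ABRACL, 2.36 for EMP3 and 2.95 for CAPG. Among the 12584 genes whose mean FPKM reached 0.5, 22.8% lay below ABRACL, 30.2% below EMP3 and 36.4% below CAPG.

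ABRACL, the costars-family protein, had an FPKM of 0.978, 1.10 and 1.76 in low-iron 2, 3 and 7. Its FPKM was 0.602, 0.630 and 0.646 in control 4, 5 and 6, and 4.10, 2.14 and 3.62 in high-iron 2, 7 and 8. Every high-iron library lay above every low-iron library, and every low-iron library above every control library, so none of the groups overlapped. The group means were 3.28 ± 1.02 in high-iron, 1.28 ± 0.418 in low-iron and 0.626 ± 0.0224 FPKM in control (SD, n = 3). The mean in high-iron was 5.25 times the control mean and 2.57 times the low-iron mean.

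EMP3, the membrane protein, had an FPKM of 2.29, 2.93 and 2.14 in low-iron 2, 3 and 7. Its FPKM was 0.928, 1.31 and 1.21 in control 4, 5 and 6, and 3.48, 4.44 and 2.48 in high-iron 2, 7 and 8. All 6 libraries of the low-iron and high-iron groups lay above all control libraries. High-iron 8 lay below low-iron 3, so these groups overlapped and their order was not beyond the spread of the libraries. The means were 3.47 ± 0.978 in high-iron, 2.45 ± 0.415 in low-iron and 1.15 ± 0.196 FPKM in control (SD, n = 3). The mean in high-iron was 3.02 times that of control and 1.41 times that of low-iron.

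CAPG, the filament-capping protein, had an FPKM of 1.18, 1.94 and 1.47 in low-iron 2, 3 and 7. Its FPKM was 2.25, 2.595 and 2.08 in control 4, 5 and 6, and 3.64, 4.49 and 6.93 in high-iron 2, 7 and 8. The groups did not overlap, and here control stood above low-iron. The means were 5.02 ± 1.71 in high-iron, 2.31 ± 0.264 in control and 1.53 ± 0.384 FPKM in low-iron (SD, n = 3). The mean in high-iron was 2.18 times that of control and 3.28 times that of low-iron.

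The 3 genes thus had their highest level in the same group but their lowest in different groups, which was control for ABRACL and EMP3 and low-iron for CAPG. The highest library of each gene was also a different pig, namely high-iron 2 for ABRACL, high-iron 7 for EMP3 and high-iron 8 for CAPG.

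**Figure D1:**
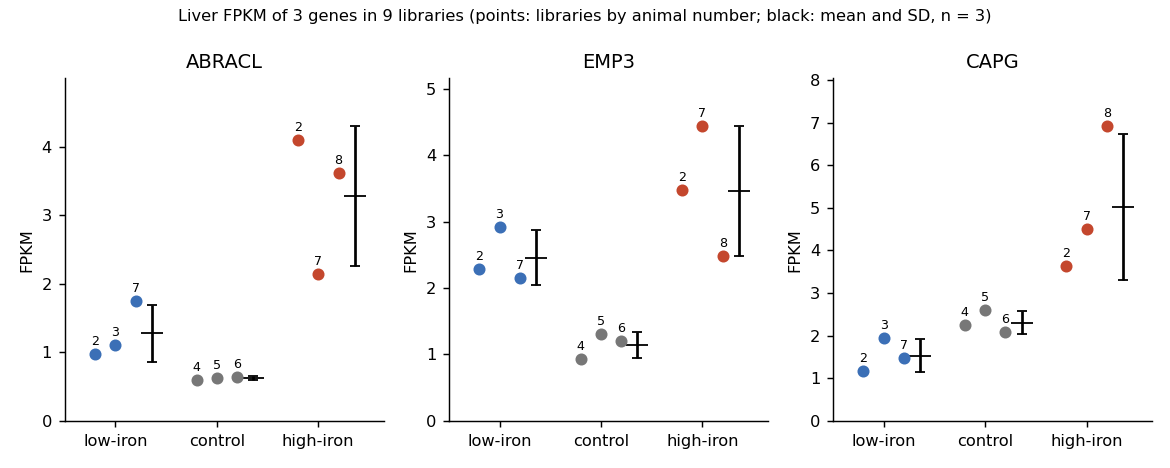
FPKM of ABRACL, EMP3 and CAPG (vertical axes, each from 0) by group (low-iron, control, high-iron), with 1 point per library labelled by its animal number and the mean with SD (n = 3) in black. ABRACL runs from 0.602 in control 4 to 4.10 in high-iron 2, EMP3 overlaps only between low-iron and high-iron, and CAPG is lowest in the low-iron libraries.

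The depth behind these values was estimated from the table itself. Among genes with a single transcript, 17.5% to 20.8% of the low values in a library fell within 0.0003 of a whole multiple of a common step in FPKM times length, and this step was read as the worth of 1 fragment. It corresponded to about 17100000 to 19400000 fragments in the low-iron, 17200000 to 17700000 in the control and 18300000 to 22700000 in the high-iron libraries. By this estimate ABRACL rested on 7.91 to 8.47 fragments per control library, 12.7 to 23.4 per low-iron library and 29.6 to 70.3 per high-iron library. A count of 8 has a 95% exact Poisson interval of 3.45 to 15.8. The 3 control values of ABRACL had a coefficient of variation of 3.58%, which is narrower than the counting error of about 34.8% at this depth, so the control spread alone is no measure of its error. EMP3 rested on 14.1 to 20.3 fragments in control, 33.1 to 49.9 in low-iron and 45.0 to 71.2 in high-iron libraries, taking its shortest transcript. CAPG rested on 45.9 to 59.3, 25.97 to 48.6 and 105.7 to 184 fragments in the same order of groups. These intervals cover counting error only. High-iron 2, the deepest library, was also the highest for ABRACL, and the part of depth in this value was not tested.

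**Figure D2:**
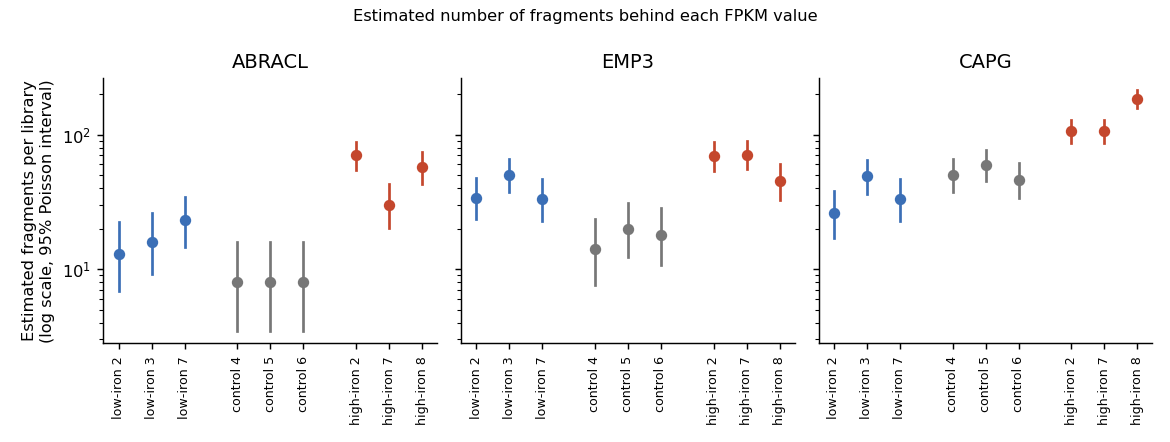
Estimated number of fragments behind each value (log scale) for the 3 genes in every library, with 95% Poisson intervals as vertical lines and colours for the groups. The 3 control libraries of ABRACL sit at 8 fragments with intervals from 3.45 to 15.8, and CAPG in high-iron 8 has the most, with 184.

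The annotation limits what the values can hold. The library kit named in the labels does not mark strand, so fragments of overlapping genes cannot be told apart. ABRACL has 1 annotated transcript of 758 bases with 2 very short gaps in its exons, the shortest of 2 bases. It shares 120 exonic bases with LOC110259990, whose FPKM was between 0.00210 and 0.135 over the 9 libraries, below ABRACL in each of them. EMP3 has 3 transcripts of 878 to 943 bases, CAPG has 7 of 1288 to 1532 bases, and neither overlaps another annotated protein-coding gene. Overlap with other kinds of genes was not searched. The flanking genes HECA, TMEM143 and ELMOD3 overlapped between high-iron and control libraries. HECA beside ABRACL ranged from 5.79 to 9.17 FPKM in high-iron and from 4.77 to 7.96 in control libraries. TMEM143 beside EMP3 ranged from 2.57 to 3.43 in high-iron and from 3.19 to 4.23 in control libraries, and ELMOD3 beside CAPG from 5.47 to 9.39 and from 7.90 to 8.47.

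Low-iron was compared with control to ask whether the genes also differed in a contrast of group means that holds no high-iron library. This comparison shares its control and its low-iron libraries with the choice of the genes, so its p-values are not independent of that choice. A low control value favours a positive difference, and a low value in low-iron a negative one. Differences are on the scale of log2(FPKM + 0.1) and were fitted with limma over all 12584 genes. The 3 groups were fitted together, so the high-iron libraries entered the spread estimate, and they entered the mean FPKM of the filter. With the compared pair fitted alone the unadjusted limma p was 0.031 for ABRACL, 0.004 for EMP3 and 0.059 for CAPG. A gene is said to rise or fall when its fold change is at least 2 on this scale and its unadjusted p is under 0.05, the thresholds the study used. By this rule 0.596% of all tested genes were higher and 0.286% lower in low-iron than in control. EMP3 rose, by 1.04 on the log2 scale (SE 0.27, 95% interval 0.44 to 1.63), which passed the unadjusted threshold and not the adjusted (limma, adjusted p = 0.9998). ABRACL differed by 0.88 (SE 0.32, 95% interval 0.17 to 1.60). It passed the unadjusted p threshold but not that of the fold change (limma, adjusted p = 0.9998). CAPG differed by -0.58 (SE 0.28, 95% interval -1.20 to 0.04) and passed neither (limma, adjusted p = 0.9998). After adjustment no gene of the table passed 0.05 in this comparison, while 463 had an unadjusted limma p under 0.05. An exact two-sided permutation test over the 6 libraries gave p = 0.1 for each of the 3 genes, the smallest value that 3 against 3 allows.

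The call of EMP3 was close to its fold threshold. It was lost without low-iron 3, at a difference of 0.91, and without control 4, at 0.90. It was also lost with median-of-ratios scaling or quantile normalization, at 0.96 each, and with a pseudocount of 1, at 0.68. The difference of ABRACL was 1.04 and passed both thresholds without low-iron 2, but was 0.65 and passed neither without low-iron 7. CAPG passed the unadjusted p threshold, though never that of the fold change, with median-of-ratios scaling, at -0.66, with quantile normalization, at -0.63, with array quality weights, at -0.64, and without low-iron 3, at -0.76. Higher values without overlap between low-iron and control, as in ABRACL and EMP3, were found in 6.1% of all tested genes, and lower values without overlap, as in CAPG, in 2.24%.

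In high-iron against control the log2 differences were 2.17 (SE 0.32) for ABRACL, 1.49 (SE 0.27) for EMP3 and 1.04 (SE 0.28) for CAPG. Of all tested genes, 0.207%, 0.660% and 2.11% had a larger difference than ABRACL, EMP3 and CAPG. For all genes, 1.27% were called higher, 0.294% were called lower and 9.14% were higher without overlap in high-iron than in control. In high-iron against low-iron the differences were 1.29 (SE 0.32) for ABRACL, 0.46 (SE 0.27) for EMP3 and 1.63 (SE 0.28) for CAPG. Larger differences were found in 0.858%, 12.5% and 0.429% of genes, respectively. The matching shares of all genes were 1.01% called higher, 0.532% called lower and 8.11% higher without overlap. Since the genes were picked on these contrasts, nothing is read from these positions. The median of all tested genes was 0.08 for low-iron minus control, 0.10 for high-iron minus control and 0.03 for high-iron minus low-iron. With median-of-ratios scaling these medians were -0.0028, -0.0269 and -0.0149, and the sign of every member's difference was kept.

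**Figure D3:**
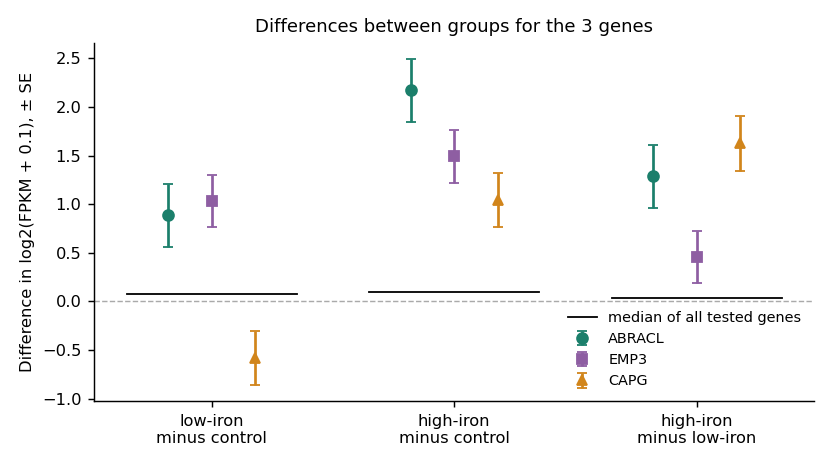
Difference in log2(FPKM + 0.1) with its standard error (vertical axis) for ABRACL, EMP3 and CAPG in the 3 comparisons (horizontal axis), with the median of all tested genes as a black line. CAPG at -0.58 lies below the median of all genes in low-iron minus control, and EMP3 at 0.46 is the member with the smallest difference in high-iron minus low-iron.

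Among pigs fed alike, no test of joint variation of the 3 genes passed. After removal of the group means, ABRACL and EMP3 had a Pearson r of -0.53 over 9 libraries (exact permutation p = 0.306, adjusted 0.917 over 3 pairs) and a Spearman coefficient of -0.52 (exact permutation p = 0.292, adjusted 0.875). Without the 2 libraries farthest from the median r was -0.18. For ABRACL and CAPG r was 0.05 (exact permutation p = 0.944, adjusted 0.944) and the Spearman coefficient 0.08 (exact permutation p = 0.889, adjusted 0.889), with r = -0.016 without 2 libraries. For EMP3 and CAPG r was -0.20 (exact permutation p = 0.769, adjusted 0.944) and the Spearman coefficient -0.13 (exact permutation p = 0.838, adjusted 0.889), with r = 0.45 without 2 libraries. Over the 9 libraries with the groups left in, r was 0.77, 0.63 and 0.36 for the same pairs, values that hold the group differences by which the genes were picked.

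No other tested gene that caps, severs or starts actin filaments passed the thresholds in any comparison. A list of 22 genes that cap or sever filaments had 17 tested members besides CAPG. Of these, 14 had a higher value in high-iron than in control, with a median difference of 0.20 on the log2 scale, and 14 had a higher value than in low-iron, with a median of 0.21. In low-iron against control 6 of 17 were higher, with a median of -0.04. Of all tested genes, 65.0% were higher in high-iron than in control, 53.6% higher in high-iron than in low-iron and 62.7% higher in low-iron than in control. CFL1, cofilin, which severs filaments, had mean FPKM of 116, 122 and 126 in low-iron, control and high-iron. The subunits of the other barbed-end capping protein, CAPZA1, CAPZA2 and CAPZB, of which the last 2 are named after their values were seen, were the 3 genes of the list that lay higher without overlap in high-iron than in control. Their log2 differences were 0.20, 0.20 and 0.26, all under a doubling, and none passed. Such a lack of overlap in 3 of 17 genes stands beside 9.14% of all tested genes. Against low-iron 4 of 17 were higher without overlap, beside 8.11%. Without high-iron 2 or without low-iron 3, 1 gene of the list, EPS8, was called in high-iron against low-iron, at 1.17 and 1.198.

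The relatives of CAPG in the gelsolin family were AVIL, FLII, SVIL, VIL1 and SCIN, also named with their values known. In high-iron minus control their log2 differences were 0.01 for AVIL, -0.04 for FLII, 0.08 for SVIL, 0.71 for VIL1 and 1.08 for SCIN. None passed, and SCIN, which had a mean FPKM of 0.593, ranged from 0.406 to 1.35 in high-iron and from 0.0664 to 0.667 in control libraries. Gelsolin itself was not matched to a symbol and is not analysed here.

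Of 25 tested genes that bind actin monomers or start new filaments, 23 were higher in high-iron than in control (median 0.16), 22 higher than in low-iron (median 0.24) and 10 higher in low-iron than in control (median -0.05), and none passed. In high-iron 5 of 25 were higher without overlap than in control and 5 of 25 than in low-iron, beside 9.14% and 8.11% of all tested genes. Without high-iron 7, PFN2 was called lower in high-iron than in control, at -1.31. TMSB4X, thymosin beta 4, which holds actin monomers, had mean FPKM of 277, 258 and 321 in low-iron, control and high-iron. PFN1, profilin, which feeds monomers to growing filaments, had 133, 127 and 136.

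Among the relatives of EMP3, EMP1 rose in high-iron against control. Its FPKM was 1.32, 0.369 and 2.04 in control 4, 5 and 6, and 3.66, 4.28 and 2.501 in high-iron 2, 7 and 8. The groups did not overlap, as in 9.14% of all tested genes, and control 5 was the lowest. The difference was 1.63 on the log2 scale (SE 0.61, limma, adjusted p = 0.892). It did not pass without control 5, at 1.00, without high-iron 2, at 1.58, or without high-iron 7, at 1.47. In low-iron EMP1 was 1.21, 5.19 and 1.43, a wide spread with low-iron 3 far above the other two. Without low-iron 3, EMP1 was also called in high-iron against low-iron, at 1.31. EMP2 and PMP22 differed by 0.04 and 0.23 from control and did not pass. Of these 3 lists, 1 of 45 tested genes thus rose in high-iron against control, which is 2.22% beside 1.27% of all genes.

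**Figure D4:**
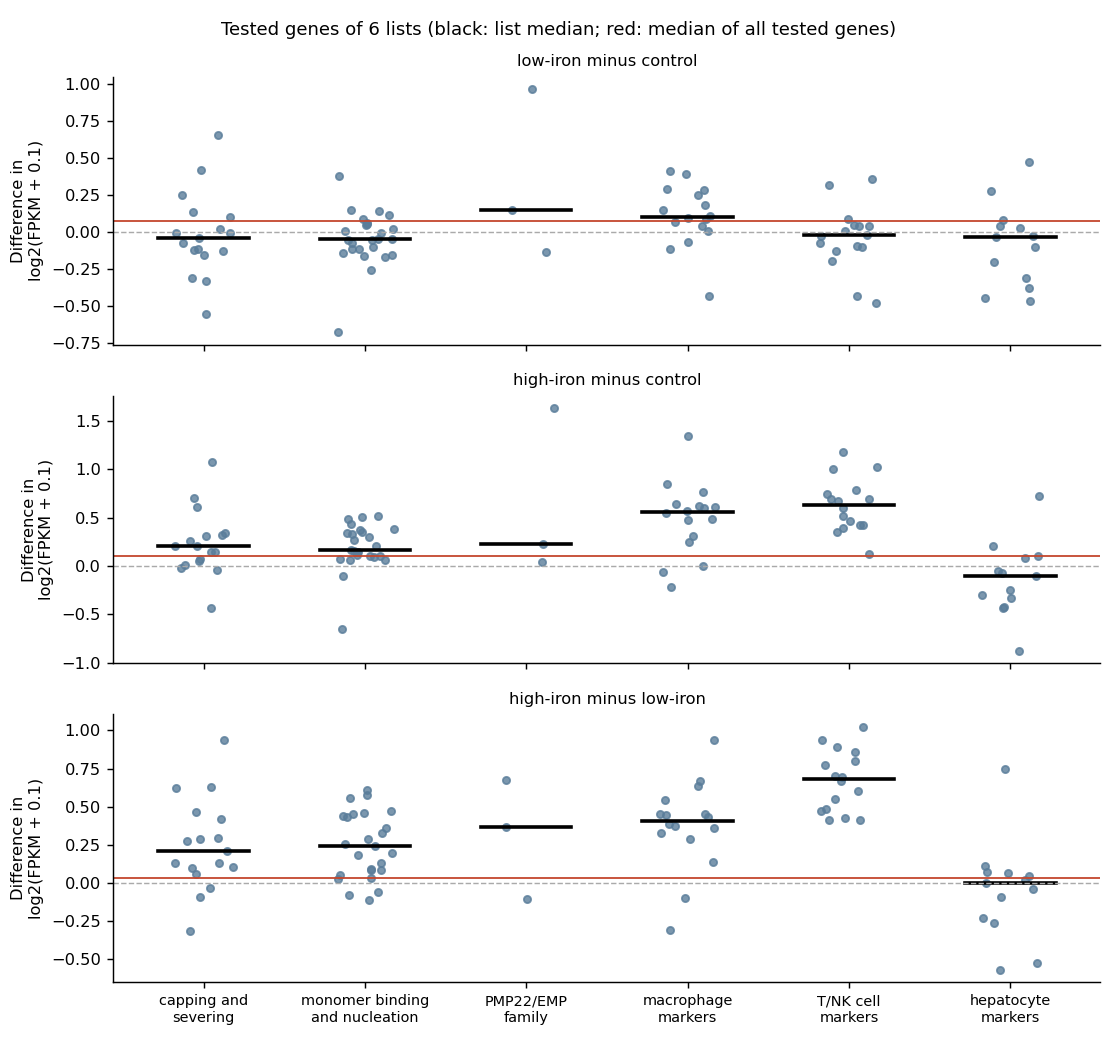
Difference in log2(FPKM + 0.1) (vertical axes) of the tested genes of 6 lists (points) in the 3 comparisons, with list medians in black and the median of all tested genes in red. In high-iron minus control the medians are 0.20 and 0.16 for the actin lists, 0.56 for macrophage markers, 0.63 for T and NK cell markers and -0.10 for hepatocyte markers.

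Markers of other liver cells also differed between these libraries, and their values are given for the lists as a whole. In bulk tissue, fewer cells of a type and less RNA per cell cannot be told apart. Hepatocyte markers identified the tissue, with summed FPKM from 79917 to 101428 over the 9 libraries and no call among 13 tested genes. ALB, albumin, and FGB, a fibrinogen chain, the most abundant of them, differed by -0.10 and -0.33 between high-iron and control. Without high-iron 8, APOA2, an apolipoprotein, was called higher in high-iron than in control, at 1.03, and than in low-iron, at 1.05, and CPS1, an enzyme of the urea cycle, lower than in control, at -1.02. Of 16 macrophage markers, 14 were higher in high-iron than in control (median 0.56), 10 without overlap beside 9.14% of all tested genes. Also 14 were higher than in low-iron (median 0.41), 8 without overlap beside 8.11% of all tested genes. Their summed FPKM was 1448 to 1717 in high-iron, 1113 to 1420 in control and 1255 to 1430 in low-iron libraries. CLEC4F, a lectin of Kupffer cells, was the only macrophage marker called, in high-iron against control, by 1.35 (SE 0.40, limma, adjusted p = 0.885). That is 1 of 16 genes, beside 1.27% of all tested genes. Without control 6, TYROBP passed as well, at 1.121, and CLEC4F also passed against low-iron without high-iron 7, at 1.06, or without low-iron 2, at 1.09. In low-iron against control, where EMP3 rose and CAPG had its lower values, 13 of 16 macrophage markers were higher with a median of 0.10 and none passed.

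Of 16 tested T and NK cell markers, 16 were higher in high-iron than in control (median 0.63), 4 without overlap beside 9.14% of all tested genes. Likewise 16 were higher than in low-iron (median 0.68), 5 without overlap beside 8.11%. In low-iron against control 7 of 16 were higher, with a median of -0.02. Their summed FPKM was 50.9 to 79.4 in high-iron, 35.5 to 46.8 in control and 32.6 to 38.0 in low-iron libraries. High-iron 8 had the highest sum and the highest CAPG, and it also had the highest B and plasma cell sum, 36.8, and endothelial sum, 430. In high-iron 2, 7 and 8 the T and NK cell sum was 56.3, 50.9 and 79.4 and the macrophage sum 1717, 1496 and 1448. Neither sum had the order of CAPG, and the macrophage sum had the opposite order. The most abundant markers weigh most in a sum, and single macrophage markers did not all follow it. CLEC4F was 31.7, 29.9 and 48.0 in the same libraries, highest in high-iron 8. CD8A, a receptor of cytotoxic T cells, was the only T and NK cell marker called, against both groups, by 1.01 (SE 0.34, limma, adjusted p = 0.885) and 1.03 (SE 0.34, limma, adjusted p = 0.615). This is 1 of 16 genes in each comparison, beside 1.27% and 1.01% of all tested genes. Both calls lay close to the fold threshold and were lost in many alternatives. Without high-iron 8 the differences were 0.68 and 0.70. They were 0.88 and 0.98 with median-of-ratios scaling, 0.89 and 0.98 with quantile normalization, 0.81 and 0.84 with a pseudocount of 1, and 0.93 and 0.95 with EIF1AY as a covariate. The call against control was also lost without control 6, at 0.69, and that against low-iron without low-iron 3, at 0.95, and with the animal number as a replicate block, at 0.97. With single libraries left out, between 0 and 4 of the 16 T and NK cell markers passed in each of these comparisons. The most passed without control 4 and without high-iron 7. In these fits 296 and 272 of all 12584 tested genes were called in either direction.

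Neutrophil markers were scarce, with summed FPKM of 3.82 to 5.90 in control, 7.48 to 10.3 in low-iron and 4.75 to 13.8 in high-iron libraries. The sum in low-iron thus lay above that in control without overlap, but 0 of 4 tested genes did so singly, beside 6.1% of all tested genes. Of these 4 genes only S100A12 was called, in low-iron against control, beside 0.596% of all tested genes called higher there. It was listed at 0 in control 5 and 6, and the call was lost without either of them and without low-iron 3 or 7. Endothelial markers summed to 357 to 430 in high-iron, 294 to 339 in control and 301 to 368 in low-iron libraries. Of 13 tested, 12 were higher in high-iron than in control, 7 without overlap beside 9.14% of all tested genes. Against low-iron 10 were higher, 3 without overlap beside 8.11%. VWF was called against control, which is 1 of 13 beside 1.27% of all tested genes. Stellate cell and fibroblast markers summed to 325 to 437, 242 to 317 and 219 to 422 in the same order, with COL1A1, COL6A3 and RGS5 called against control and COL1A1 and COL1A2 against low-iron. These are 3 and 2 of 16 tested genes, beside 1.27% and 1.01% of all. Higher without overlap were 5 and 1 of the 16, beside 9.14% and 8.11% of all. COL6A3 lost its call with median-of-ratios scaling, with a pseudocount of 1 and without high-iron 8, and RGS5 with array quality weights and without control 6. COL1A2 lost its call with EIF1AY as a covariate and without high-iron 2, high-iron 8, low-iron 2 or low-iron 7, while COL1A1 lost none in the alternatives run. With single libraries left out, 2 to 4 and 1 to 4 genes of this list passed in these comparisons, the most without control 4 and without low-iron 3. In these fits 296 and 333 of all 12584 tested genes were called in either direction. B and plasma cell markers summed to 19.2 to 36.8, 15.3 to 30.5 and 10.6 to 18.9, with JCHAIN called against low-iron, and bile duct markers to 105.9 to 144, 85.5 to 145 and 93.2 to 218, with SPP1 called against low-iron. Each is 1 of 8 tested genes of its list, beside 1.01% of all, and both calls were lost without single libraries. Erythroid markers summed to 351 to 841 in high-iron, 212 to 1452 in control and 478 to 2455 in low-iron libraries, and KLF1 was the only gene of the 9 marker lists at 0 in all libraries. Of 3 tested erythroid genes 0 were higher in high-iron than in low-iron (median -1.13), 0 higher than in control (median -0.13) and 3 higher in low-iron than in control (median 0.97), and none was called. HBB, a hemoglobin chain whose fragments may be shared with its near copies, and ALAS2, an enzyme of heme synthesis, were the most abundant. In high-iron against low-iron both were called lower without low-iron 3, at -1.79 and -1.60, and ALAS2 also without high-iron 2, at -1.74. Without control 6, 3 of the 3 tested erythroid genes passed in low-iron against control. In that fit 171 of all 12584 tested genes were called in either direction. The part of these cell types in the levels of ABRACL, EMP3 and CAPG was not tested.

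**Figure D5:**
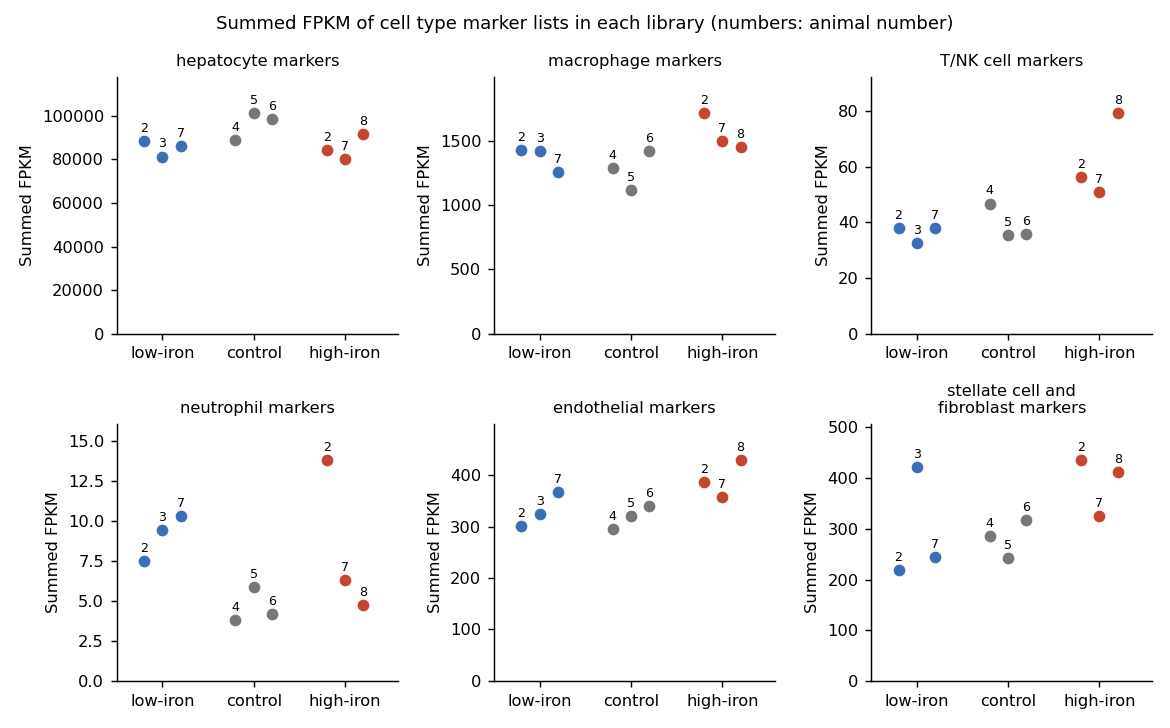
Summed FPKM (vertical axes, each from 0) of 6 cell type marker lists in each library, labelled by animal number, for the 3 groups. T and NK cell markers range from 50.9 to 79.4 in high-iron and from 32.6 to 46.8 in the other libraries, and neutrophil markers are lowest in control 4, at 3.82.

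The genes whose log2(FPKM + 0.1) pattern was most like the 3 members over the 9 libraries were found by the mean Pearson r with them, as a description. They were SLC26A2, a sulfate transporter (0.807), FLI1, a transcription factor of blood and endothelial cells (0.806), PRPS2, an enzyme of nucleotide synthesis (0.803), F13A1, a coagulation factor subunit (0.797), and FAM57A (0.786). F13A1 had an FPKM of 2.55, 2.48 and 1.92 in high-iron 2, 7 and 8, against 0.775 to 0.860 in control and 0.775 to 1.01 in low-iron libraries. FLI1 had 5.31, 4.49 and 4.84 in the same high-iron libraries, 2.73 to 3.34 in control and 2.85 to 3.38 in low-iron. Both were highest in high-iron without overlap and differed little between the other groups.

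Each member also had its own nearest genes, and these differed from member to member. ABRACL was nearest to MANSC1 (r = 0.953), THAP1 (0.928) and CYTIP (0.918), and MANSC1, with 5.64 in high-iron 2 and 3.75 in high-iron 7, also followed it within groups (r = 0.92). EMP3 was nearest to SCARB1, the receptor for high-density lipoprotein (r = 0.966), KCTD3 (0.934) and MESDC1 (0.924), and KCTD3 also followed EMP3 within groups (r = 0.96). SCARB1 was abundant and moved little, from 18.9 to 19.2 FPKM in control, 20.5 to 22.2 in low-iron and 21.4 to 23.3 in high-iron libraries. CAPG was nearest to LAPTM5, a lysosomal membrane protein of blood cells (r = 0.948), ARL15 (0.946) and RAB8B (0.939). LAPTM5 was 42.2, 44.9 and 55.0 in high-iron 2, 7 and 8, 29.95 to 30.28 in control and 24.8 to 29.7 in low-iron libraries, with the order of high-iron libraries that CAPG showed. These genes had the highest r of all tested genes with a symbol over the same 9 libraries, which share depth and group differences, and no test was made of them.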

How the data were processed

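Liver RNA of 9 pigs was sequenced from poly(A)-selected, paired-end libraries. Per the labels and the study's methods, the authors used HISAT2 to align cleaned reads to Sscrofa11.1 and StringTie for assembly, and deposited FPKM values of the 9 libraries in 1 table. It holds no counts, and its gene numbers were matched to annotation release 106 by serial order, with all 20660 numbered genes on protein-coding entries and 5258 new genes without a name. Groups came from the library titles and the series' design text.

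The 12584 genes whose mean FPKM reached 0.5 were compared on the log2(FPKM + 0.1) scale, in 1 limma fit of the 3 groups with an empirical Bayes trend and Benjamini-Hochberg adjustment over all tested genes. R 4.3.3, limma 3.58.1 and Python 3.11.15 with scipy 1.17.1 were used, and the fit was tested on simulated data. No count test was run, since whole fragments could be read for only part of the low values. Depth was estimated from the step between low values, with Poisson intervals for counting error. The genes and the 12 gene lists were chosen with earlier results of these data known. Of 176 listed symbols 167 stood on a single gene of the table and 2 on a pair of genes, which were left out. Named besides the 3 members are the called genes of each list or, where none was called, the pair with the highest mean FPKM, and the genes with the highest Pearson r. Genes called only under an alternative, the other EMP and gelsolin relatives, flanking genes and KLF1 were named after their values were seen. Alternatives were pseudocounts of 1 and 0.01, no filter or a mean FPKM of 1 or more, TPM, median-of-ratios and quantile scaling, a fit of the compared pair alone, array quality weights, the level of Y-linked EIF1AY as a covariate, the animal number as a replicate block, and each library left out. Protein sequences were not used here, and a further gene list is not reported here.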

Additional observations from a re-analysis of the deposited data

How the results depend on the processing

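The direction of each of the 9 differences of ABRACL, EMP3 and CAPG was kept in every alternative run. With a pseudocount of 1 the difference from control in high-iron was 1.37 for ABRACL, 1.04 for EMP3 and 0.83 for CAPG. The difference of CAPG was 0.92 with median-of-ratios scaling and with quantile normalization, 0.95 with EIF1AY as a covariate and 1.25 with array quality weights. EMP3 in low-iron against control lost its call at 0.684 with a pseudocount of 1, at 0.958 with median-of-ratios scaling and at 0.956 with quantile normalization, and ranged from 0.903 to 1.13 with single libraries left out. ABRACL in the same comparison ranged from 0.650 to 1.04 with single libraries left out, past both thresholds without low-iron 2 and past neither without low-iron 7, and CAPG from -0.757 to -0.420, past the unadjusted p threshold alone without low-iron 3. With single libraries left out, high-iron minus control ranged from 1.99 to 2.44 for ABRACL, 1.30 to 1.71 for EMP3 and 0.790 to 1.24 for CAPG, and high-iron minus low-iron from 1.11 to 1.56, 0.264 to 0.671 and 1.37 to 1.83. Within groups, r of ABRACL and CAPG turned to -0.186 without low-iron 2, -0.0927 without high-iron 7 and -0.208 without high-iron 8, and r of EMP3 and CAPG turned to 0.677 without high-iron 8, with ranges of -0.208 to 0.481 and -0.537 to 0.677 over the libraries left out.

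The number of genes called depended on the settings. In low-iron against control it was 111, and 34 with a pseudocount of 1, 331 without a filter, 171 with array quality weights and 121 to 209 with single libraries left out, the most without control 5. In high-iron against control it was 197, and 74, 504 and 212 to 296 for the pseudocount of 1, no filter and single libraries left out, the most without control 4. In high-iron against low-iron it was 194, and 67, 458 and 207 to 333 for the same settings, the most without low-iron 3, and 334 with array quality weights. Genes of the 3 actin and EMP lists called numbered 0, 1 and 0 in these comparisons, 0, 0 to 1 and 0 to 2 with single libraries left out, and 1 in high-iron against low-iron with array quality weights. The cause of these shifts was not tested beyond the number of genes and libraries that each setting leaves.

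Animal numbers 2 and 7 stand in both the low-iron and the high-iron group. The deviations of these pairs of libraries from their group means had r of 0.018 and 0.021 across genes. Pairs of unlike number had 0.080 and -0.159. The numbers were therefore not taken to pair the pigs, though the fit with the number as a block estimated a correlation of 0.20 between libraries of the same number. With the number as a replicate block, high-iron minus low-iron was 1.26 for ABRACL, 0.51 for EMP3 and 1.61 for CAPG, and 228 genes were called. The block ended the call of CD8A in this comparison, at 0.968.

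The 3 libraries of a group and about 8 fragments of ABRACL per control library limit the precision. With 3 against 3 libraries no exact permutation test can go below 0.1.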
